A study of Mus musculus with 2 samples.

Results

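Immediate early genes are switched on within minutes of a signal reaching a cell, before any new protein has to be made. The 10 genes described here were Fos, Fosb, Jun, Junb and Jund, which encode subunits of the transcription factor AP-1, the transcription factor genes Egr1 and Ier2, and 3 genes of negative feedback, Dusp1, Nfkbia and Zfp36. They were chosen by name for this shared role, with earlier results of these data known. They make up 10 of the 31053 features in each of the 2 deposited matrices. The matrices hold single-cell RNA-seq of mouse bone marrow cells sorted for E-cadherin, an adhesion protein, and split by the stem cell factor receptor cKIT into E-cadherin+cKIT+ cells on one side and E-cadherin+cKIT- cells on the other, with 1 library each. The labels give FVB as the strain of both sorts and name no treatment, genotype or age. The study's text calls the animals wild-type in one place and Vav-iCre;mTmG in another, that is, mice in which the Vav promoter drives Cre in blood cells and switches on a fluorescent reporter. Cells of several mice entered each library and the files do not tell the mice apart. The marrow came from crushed leg bones and was kept cold, and the labels name no stimulation.

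AP-1 is a dimer of a Fos and a Jun protein, or of 2 Jun proteins, that binds DNA and switches on genes of proliferation, differentiation and cytokine production. MAP kinase signals reach the Fos and Egr1 promoters through the serum response factor and CREB, and the mRNAs decay quickly once the signal ends. In basophils and mast cells, crosslinking of the IgE receptor or a cytokine such as IL-3 turns on these genes ahead of cytokine genes. Tissue dissociation and sorting are also known to turn them on, so that their mRNA in a sorted cell can stem from the marrow or from the handling.

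There was 1 library per sort, so no difference between the sorts could be set against a spread between replicates and no p-value is given. The level of a gene is its number of unique molecular identifiers (UMIs, counted mRNA molecules) summed over the cells of a group and given per 1000000 UMIs of that group (CPM). Intervals are exact 95% intervals and cover counting error only, not differences between mice, sorts or library preparations. After the study's filter, 6479 cKIT+ and 3662 cKIT- cells remained. A cKIT+ cell held 13039 UMIs at the median, against 4416.5 for a cKIT- cell, so the members are also given as UMIs per cell. The study's text reports fewer sequencing reads per cell for the cKIT- library, so the libraries were also sequenced to unlike depth. Less RNA per cell and shallower sampling of each cell cannot be told apart here. The libraries shared 10 cell barcodes.

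To show where the members can be regulated, their sequences were read from the reference. The 250 bases before the RefSeq start (GRCm38.p6) are printed for 4 members whose levels took unlike courses in the cKIT- library, Fos and Dusp1 on one side and Junb and Zfp36 on the other. Capitals mark matches to the cAMP response element (CRE, TGACGTCA), the AP-1 site (TGANTCA), the serum response element, an NF-kB site or a TATA box (TATAAA), each searched on both strands.
Fos, chr12:85473640-85473889, plus strand: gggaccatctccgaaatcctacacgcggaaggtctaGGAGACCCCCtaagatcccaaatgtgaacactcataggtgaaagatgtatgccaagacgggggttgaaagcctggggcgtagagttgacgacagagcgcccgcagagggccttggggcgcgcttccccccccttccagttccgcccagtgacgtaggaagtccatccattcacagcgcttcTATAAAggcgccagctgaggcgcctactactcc
Dusp1, chr17:26508473-26508722, minus strand: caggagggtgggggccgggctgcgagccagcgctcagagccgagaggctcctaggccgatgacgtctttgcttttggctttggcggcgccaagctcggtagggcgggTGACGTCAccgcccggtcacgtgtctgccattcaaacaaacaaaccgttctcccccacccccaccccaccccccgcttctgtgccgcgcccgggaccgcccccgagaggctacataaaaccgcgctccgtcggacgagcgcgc
Junb, chr8:84978749-84978998, minus strand: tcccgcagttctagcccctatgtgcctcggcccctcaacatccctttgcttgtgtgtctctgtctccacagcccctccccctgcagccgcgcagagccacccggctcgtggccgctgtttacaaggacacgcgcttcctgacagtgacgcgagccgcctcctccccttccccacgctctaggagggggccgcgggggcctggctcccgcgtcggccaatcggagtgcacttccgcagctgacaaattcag
Zfp36, chr7:28379229-28379478, minus strand: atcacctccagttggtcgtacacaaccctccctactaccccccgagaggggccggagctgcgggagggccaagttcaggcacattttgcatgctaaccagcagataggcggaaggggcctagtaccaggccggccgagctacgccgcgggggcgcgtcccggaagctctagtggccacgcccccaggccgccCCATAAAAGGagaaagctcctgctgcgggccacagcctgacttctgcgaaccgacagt
The Fos window held a TATA box 33 bases before the start and 1 match to an NF-kB site. The Dusp1 window held a full CRE, which 1.55% of all 32851 promoters in the table held. The Zfp36 window held 1 serum response element, found in 1.47% of promoters. The Junb window held none of the capitalised motifs. The shorter CRE core TGACG, not capitalised, stood 3 times in the Dusp1 window (2 of them inside the full CRE, on opposite strands), 2 times in that of Fos and 1 time in that of Junb, and 17.8% of promoters held it. An NF-kB site was found in 7.25%, a TATA box in 12.4% and an AP-1 site in 6.75% of promoters, and none of the 4 windows held an AP-1 site. A match is a stretch of letters and not evidence of binding, and sites outside the 250 bases were not searched. The 4 windows were picked by course, so no tie between motif and course can be read from them. Of members not printed, the Jun window held no match and that of Nfkbia an NF-kB site, and both genes were lower at the high cKIT- end. The Fosb window also held an NF-kB site, and the core TGACG, but the interval of its ratio between the cKIT- end bins included 1. The Jund window held no match, and the RefSeq start it was taken from lies upstream of the GENCODE start given below. The Dusp1 and Zfp36 windows lie inside the GENCODE gene spans given below. The promoter table matched 8 of the 10 members, and Egr1 and Ier2 were not among them.

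AU-rich elements in the 3′ UTR mark an mRNA for rapid decay, and Zfp36 encodes the protein (tristetraprolin) that binds them. Of the 10 members, 7 held the core TATTTAT at least 1 time in the 3′ UTR of 1 GENCODE M21 transcript per gene and 4 held it at least 2 times, against 25.5% and 9.33% of 21037 genes, with a median 3′ UTR of 764.5 bases in the members and 801 bases in all. The sites of the 3 members with the most matches per base are printed with the core in capitals and their position counted from the first base after the stop codon.
Dusp1, position 104: ctggtcctTATTTATttaacacc
Dusp1, position 393: tttaccttTATTTATttttgtgt
Dusp1, position 589: tgtttgttTATTTATgatctgaa
Nfkbia, position 297: ccacgtttTATTTATtgtgcttt
Nfkbia, position 486: aagatgtaTATTTATtaaacaga
Zfp36, position 575: gggcccttTATTTATgacgactt
Zfp36, position 590: gacgacttTATTTATtgtattaa
Zfp36, position 615: ttttatagTATTTATatatattg
Fos held 2 such sites and Fosb, Jun and Jund 1 each, while Junb, Ier2 and Egr1 held none. Zfp36 carried 3 copies of the element that its own protein binds.

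As a first comparison, the members were set side by side in the whole libraries. A gene was called different at 2-fold or more, if it reached 50 CPM in at least 1 sort. Of the 8 members that reached it, 5 passed 2-fold with the higher level in cKIT- cells (Jun, Junb, Jund, Ier2 and Dusp1) and 0 were lower, where 11.5% of all 3224 genes tested were higher and 6.14% lower. The median log2 ratio was 1.23 over these 8 members and 0.06 over all genes tested. Egr1 and Zfp36 stayed under 50 CPM in both sorts, and Dusp1 reached it only in cKIT- cells.

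Fos, the founding member of AP-1 (chr12:85473890-85477273), stood at 57.8 CPM in cKIT+ and 73.6 CPM in cKIT- cells, a ratio of 1.27 (1.20 to 1.35). Fosb, a relative of Fos (chr7:19302696-19310051), stood at 70.7 CPM and 118 CPM, a ratio of 1.66 (1.59 to 1.74). The Fos genes thus had the smallest ratios of the members, with Nfkbia next.

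The Jun genes differed more. Jun (chr4:95049034-95052222), the main partner of Fos, was at 406 CPM in cKIT+ and 965 CPM in cKIT- cells, a ratio of 2.38 (2.34 to 2.42). Junb (chr8:84974484-84978718), which can oppose Jun in cell growth, was at 59.3 CPM and 237 CPM, a ratio of 4.0 (3.85 to 4.16). Jund (chr8:70698949-70700616), the most constantly expressed Jun gene in many tissues, was at 241 CPM and 649 CPM, a ratio of 2.70 (2.64 to 2.75). Antisense or opposite-strand genes overlap the exons of Jun (Junos), Junb (Prdx2), Jund (Gm11175), Dusp1 (Ergic1) and Zfp36 (Gm44710), and Cell Ranger counts only reads on the gene's own strand.

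Egr1, a zinc finger factor induced through MAP kinases, was at 9.76 CPM in cKIT+ and 23.7 CPM in cKIT- cells. Ier2 (chr8:84661331-84662852), a small nuclear protein of the same early wave, was at 153 CPM and 448 CPM, a ratio of 2.93 (2.85 to 3.0). Both were higher in the cKIT- library by more than their counting error.

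Among the feedback genes, Dusp1 (chr17:26505590-26562128), a phosphatase that switches off MAP kinases, was at 26.3 CPM in cKIT+ and 61.3 CPM in cKIT- cells, a ratio of 2.33 (2.18 to 2.49). Nfkbia (chr12:55489410-55492647), the NF-kB inhibitor IκBα, was at 127 CPM and 233 CPM, a ratio of 1.83 (1.77 to 1.89). Zfp36 (chr7:28376784-28380253) had the largest ratio of the 10, with 5.62 CPM in cKIT+ and 47.7 CPM in cKIT- cells (8.48-fold, 7.63 to 9.44), at levels below the 50 CPM minimum.

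**Figure D1:**
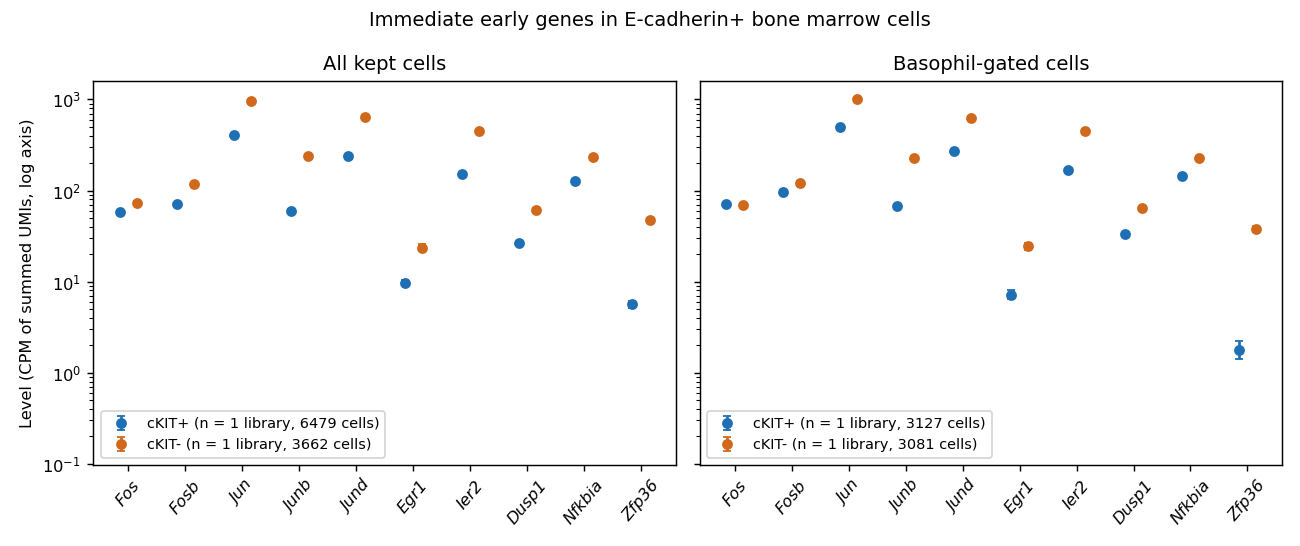
Level of each member in CPM (log axis) in the cKIT+ library (blue) and the cKIT- library (orange), over all kept cells (left) and basophil-gated cells (right). Points are sums over the cells of 1 library and bars are exact 95% counting intervals. Zfp36 shows the widest gap in both panels, from 5.62 to 47.7 CPM and from 1.78 to 38.0 CPM, and Fos the narrowest.

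Per cell, the picture was narrower, because a cKIT- cell held fewer UMIs in all: the median tested gene was 1.11 log2 units lower per cell in the cKIT- library. Zfp36 was seen 3.77 times as often per cell in cKIT- cells and Junb 1.78 times, from 0.833 to 1.48 UMIs per cell. Jun was at 5.71 UMIs per cell in cKIT+ and 6.03 in cKIT- cells, a ratio of 1.06. Ier2, Jund, Egr1 and Dusp1 had ratios of 1.30, 1.20, 1.08 and 1.03. Fos (0.565), Fosb (0.738) and Nfkbia (0.814) were lower per cell in the cKIT- library, which is the other direction from their CPM. On this scale 0 members that reached 50 CPM differed by 2-fold. Against the median tested gene, a difference that no such scaling changes, Junb was 3.84-fold and Ier2 2.81-fold higher in cKIT- cells and Fos 1.22-fold.

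**Figure D2:**
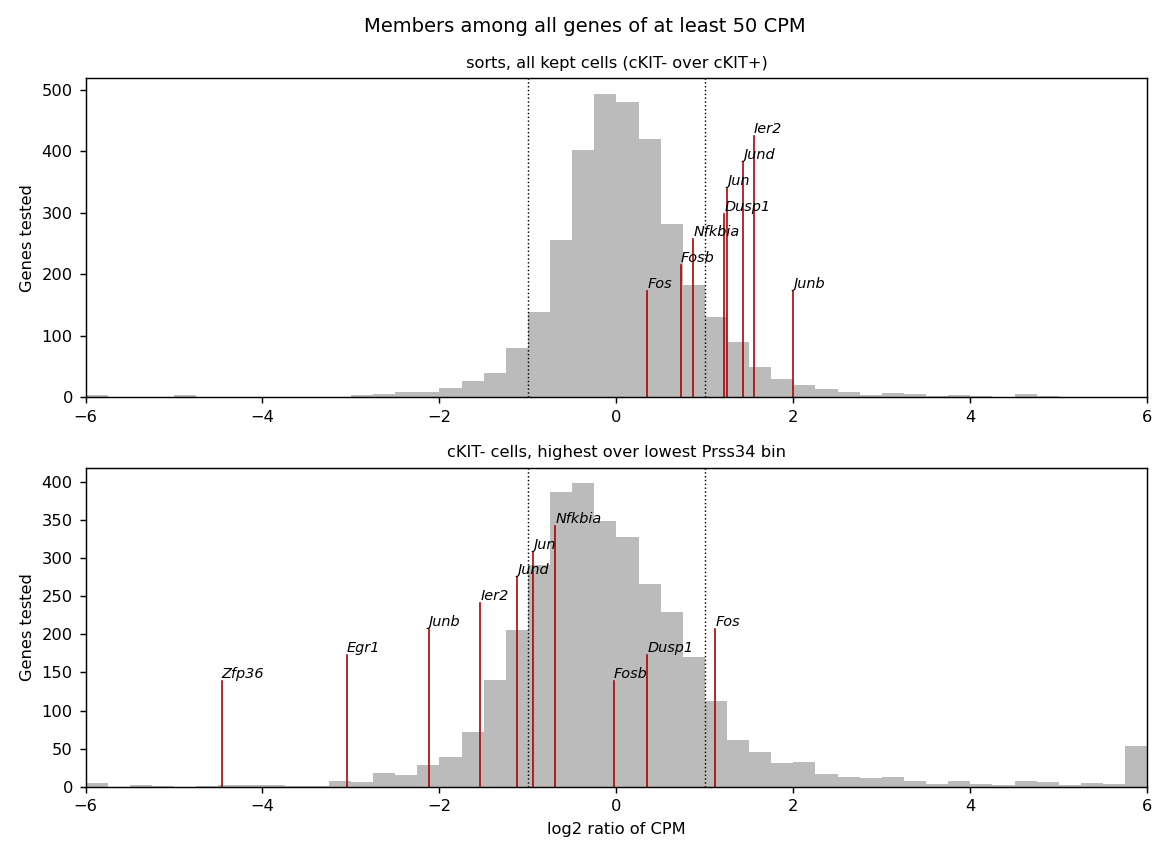
Number of genes by log2 ratio of CPM (grey bars, with genes past the axis ends counted in the end bars) among genes of at least 50 CPM in 1 group, for the cKIT- over the cKIT+ library (upper) and for the highest over the lowest Prss34 bin of the cKIT- library (lower). Red lines are the members that reached 50 CPM and dotted lines mark 2-fold. All 8 members lie to the right of 0 in the upper panel, and in the lower panel they spread from -4.46 (Zfp36) to 1.12 (Fos).

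The sorts differ in cell makeup, and the comparison was therefore repeated in basophil-gated cells, that is, cells with at least 1% of their UMIs from basophil markers and no other lineage. This gate took 3127 cKIT+ and 3081 cKIT- cells, and 9 of the 10 basophil markers reached 20 CPM in it in each library. Of 8 members tested, 4 passed 2-fold with the higher level in cKIT- basophil-gated cells (Jun, Junb, Jund and Ier2) and 0 lower, against 8.16% of 3138 genes higher and 3.76% lower. Junb was at 67.1 CPM in cKIT+ and 230 CPM in cKIT- basophil-gated cells (3.43-fold, 3.28 to 3.59), and Jun at 502 and 1011 CPM (2.01-fold, 1.98 to 2.05). Fos, at 70.9 and 69.3 CPM, had a ratio of 0.979 with an interval of 0.919 to 1.04 that included 1. Zfp36 was at 1.78 CPM, or 81 UMIs in all, in cKIT+ and at 38.0 CPM in cKIT- basophil-gated cells, a ratio of 21.3 (16.9 to 27.1).

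With gate thresholds 2 times higher, 2 of the members passed 2-fold in place of 4. Limited to cells of 3000 to 6000 UMIs, where the sorts have like depth, the log2 ratio of Zfp36 was 2.00 in place of 4.41, that of Junb 1.42 in place of 1.78, that of Jun 0.99 and that of Fos -0.81. Over all kept cells of that depth, Zfp36 was at 1.05 in place of 3.08, Junb at 1.46, Ier2 at 1.34, Jun at 1.37 and Fos at -0.61, so that Fos changed direction. Per cell, Jun was 0.927 times as high in cKIT- as in cKIT+ basophil-gated cells, the other direction from its CPM.

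Next, the members were followed along Prss34, a protease gene that basophil-lineage cells turn on, in 4382 cKIT+ and 3278 cKIT- cells that fell in no other lineage gate. The cells were split into 5 bins by the share of their UMIs that came from Prss34. In the cKIT+ library, the members other than Egr1 and Zfp36 were higher in the highest bin (6% or more, 86 cells) than in the lowest (under 0.1%, 1398 cells). Only Dusp1 reached 2-fold, from 25.9 to 52.8 CPM (2.04-fold, 1.5 to 2.71), so that 1 of 8 members tested was called higher and 0 lower, against 10.4% and 7.85% of 3160 genes. Dusp1 reached 50 CPM only in the highest bin. With each cell thinned to 1000 UMIs, the log2 ratios of Dusp1 and Fosb were -0.32 and -0.14, and thus in the other direction. That of Ier2 was then -0.01, and that of Nfkbia was 0.00 with cells thinned to 2000 UMIs. The median log2 ratio of the 8 members was 0.86 and that of all genes 0.02.

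Jun took the values 455, 394, 468, 625 and 831 CPM from the lowest to the highest bin of the cKIT+ library, with the lowest value in the second bin and the highest in the last. Fosb stood at 66.5, 70.6, 89.2, 132 and 129 CPM, with overlapping intervals in the last 2 bins. Junb was at 62.6, 60.8, 60.4, 71.9 and 120 CPM, higher in each of the last 2 bins than in the bin before it beyond the intervals. Egr1 was at 14.5 CPM in the lowest bin and between 6.73 and 7.42 CPM in the others. That lowest bin held mostly cells in no lineage gate. Of its 1345 cells deep enough for the thinning used for shares, 260 were basophil-gated. With basophil-gated cells only, the log2 ratio of Egr1 between the end bins was -0.38 in place of -1.05. Zfp36 stayed at or under 3.64 CPM in every bin. Total UMIs per cell differed little between the end bins of this library, with medians of 12390 and 12206. Leaving Prss34 and Mcpt8, the most abundant basophil protease mRNAs, out of the total put 5 members past 2-fold.

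The cKIT- library ran the other way for most members. Its lowest bin held cells unlike those of the lowest cKIT+ bin. Of 941 cKIT- cells of that bin deep enough for the thinning, 786 were basophil-gated, against 260 of 1345 in the cKIT+ library. Kit was at 0 against 49.2 CPM, but the cells were sorted on cKIT, and no cKIT- bin had Kit above 1.61 CPM. The courses of the sorts along Prss34 thus started from unlike cells. Between the lowest cKIT- bin (1049 cells) and the highest (708 cells), 5 of 10 members tested were at least 2-fold lower at the high end (Junb, Jund, Egr1, Ier2 and Zfp36) and 1 was higher (Fos), against 16.1% of 3404 genes lower and 13% higher. Of these end bins, Egr1 and Zfp36 reached 50 CPM only in the lowest and Fos only in the highest. These members were thus tested only through the bin in which they were high. The median log2 ratio was -1.03 over the members and -0.19 over all genes tested.

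Zfp36 stood at 178, 71.6, 34.3, 12.8 and 8.10 CPM from the lowest to the highest bin. It was lower in each bin than in the one before it, with intervals of the last 2 bins that just overlapped. Egr1 took a like course at 83.9, 36.6, 25.8, 13.1 and 10.1 CPM. Junb was at 646, 371, 201, 151 and 149 CPM, level over the last 2 bins. These 3 members had the largest differences along Prss34, with ratios of the highest to the lowest bin of 0.0455 (0.0339 to 0.0599), 0.121 (0.0913 to 0.158) and 0.231 (0.214 to 0.249).

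Ier2 was at 969, 681, 439, 357 and 332 CPM and Jund at 1131, 848, 629, 533 and 520 CPM. Jun, at 1669, 1253, 982, 870 and 872 CPM, had a ratio of 0.522 (0.503 to 0.542) and stayed just short of 2-fold. Nfkbia moved from 327 to 203 CPM, a ratio of 0.621. For Jun, Jund and Nfkbia the intervals of the last 2 bins overlapped most widely, and those of Ier2 only just.

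Fos went in the other direction, at 37.2, 38.3, 53.1, 76.9 and 81.0 CPM, a ratio of 2.18 (1.78 to 2.69). Fosb was at 123, 77.5, 88.5, 134 and 120 CPM, lowest in the second bin, and Dusp1 at 56.5, 30.7, 67.6, 62.4 and 71.9 CPM, with its low value in the same bin. Fos and Dusp1 were thus higher at the high end of the same bins along which the Jun genes, Egr1, Ier2 and Zfp36 were lower. For Dusp1 the intervals of the end bins, 48.4 to 65.5 and 65.7 to 78.5 CPM, almost met. The ratio of Fosb, 0.977 (0.864 to 1.11), had an interval that included 1.

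**Figure D3:**
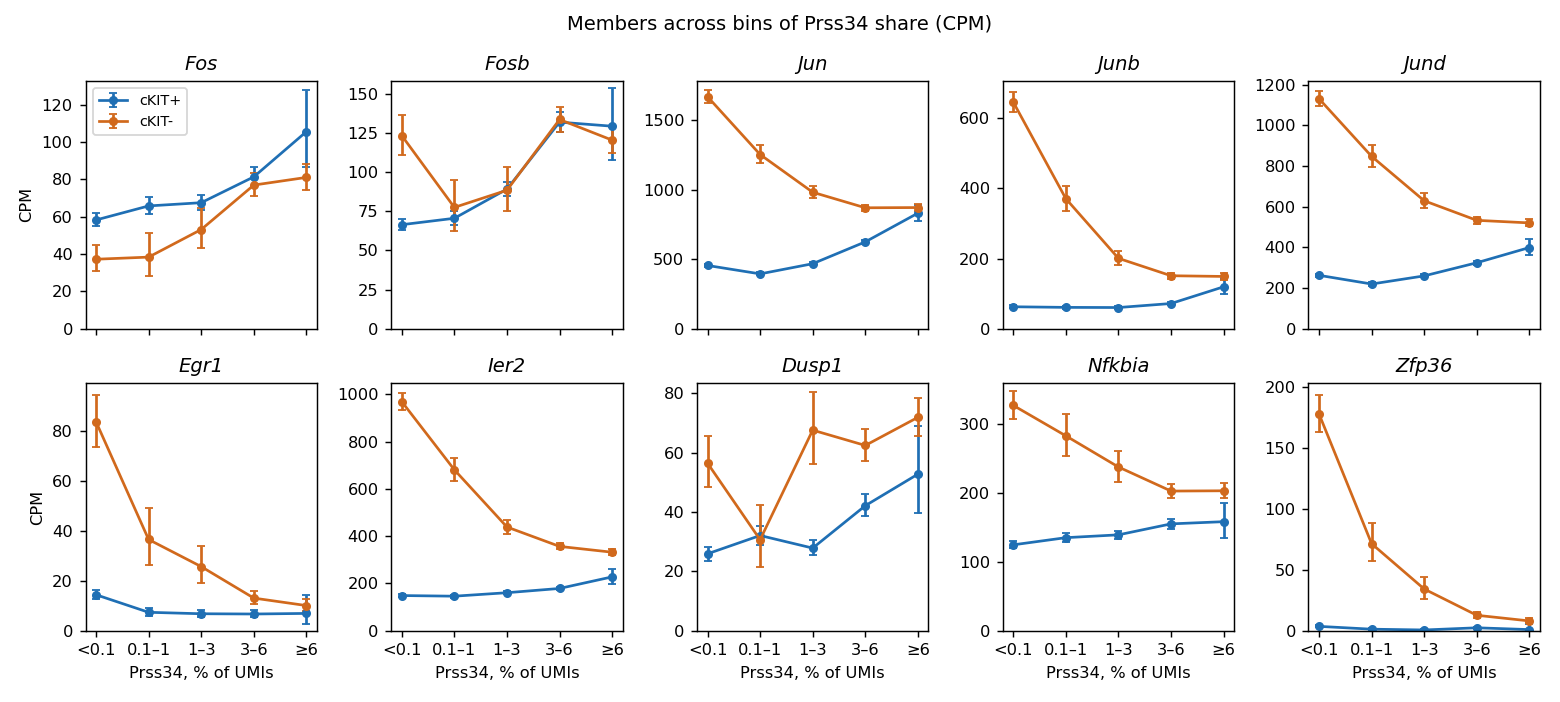
Level of each member in CPM across 5 bins of the Prss34 share of UMIs, in the cKIT+ library (blue) and the cKIT- library (orange), with exact 95% counting intervals. In the cKIT- library Zfp36, Egr1, Junb, Ier2, Jund and Jun are highest in the bin under 0.1%, where the cKIT+ library lies far below; Fos, from 37.2 to 81.0 CPM, goes up in both.

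In the cKIT- library, depth and cell cycle moved along the same axis. The median cell held 2895 UMIs in the lowest and 9478 in the highest bin, the 6 cycling markers summed to 21.9 and 2460 CPM, and mitochondrial UMIs made up 2.94% and 3.89%. Per cell, the median tested gene was 1.55 log2 units higher in the highest bin. On that scale, Zfp36 (0.521 to 0.0791 UMIs per cell) and Egr1 (0.245 to 0.0989) were still lower at the high end by more than 2-fold and Junb was at 1.89 and 1.45 UMIs per cell. Jun, Jund, Ier2 and Nfkbia changed direction, with ratios of 1.75, 1.54, 1.15 and 2.08, and Fos reached 7.28. Against the median tested gene, Zfp36 was at 0.0519, Egr1 at 0.138, Junb at 0.263, Ier2 at 0.391 and Jund at 0.525 of its lowest-bin value. Within cells of 3000 to 6000 UMIs, the log2 ratios were -3.08 for Zfp36, -2.24 for Egr1, -1.22 for Junb, -0.78 for Ier2, -0.77 for Jun, -0.66 for Jund, -0.94 for Fosb and 1.71 for Fos, so 3 members in place of 5 were lower by 2-fold. With cells that held a UMI of a cycling marker left out, 4 were lower and Fos, at 0.83, no longer passed 2-fold. Dusp1 was then at 0.07 in place of 0.35. The part of depth and cell cycle in these differences was not tested beyond these values.

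**Figure D4:**
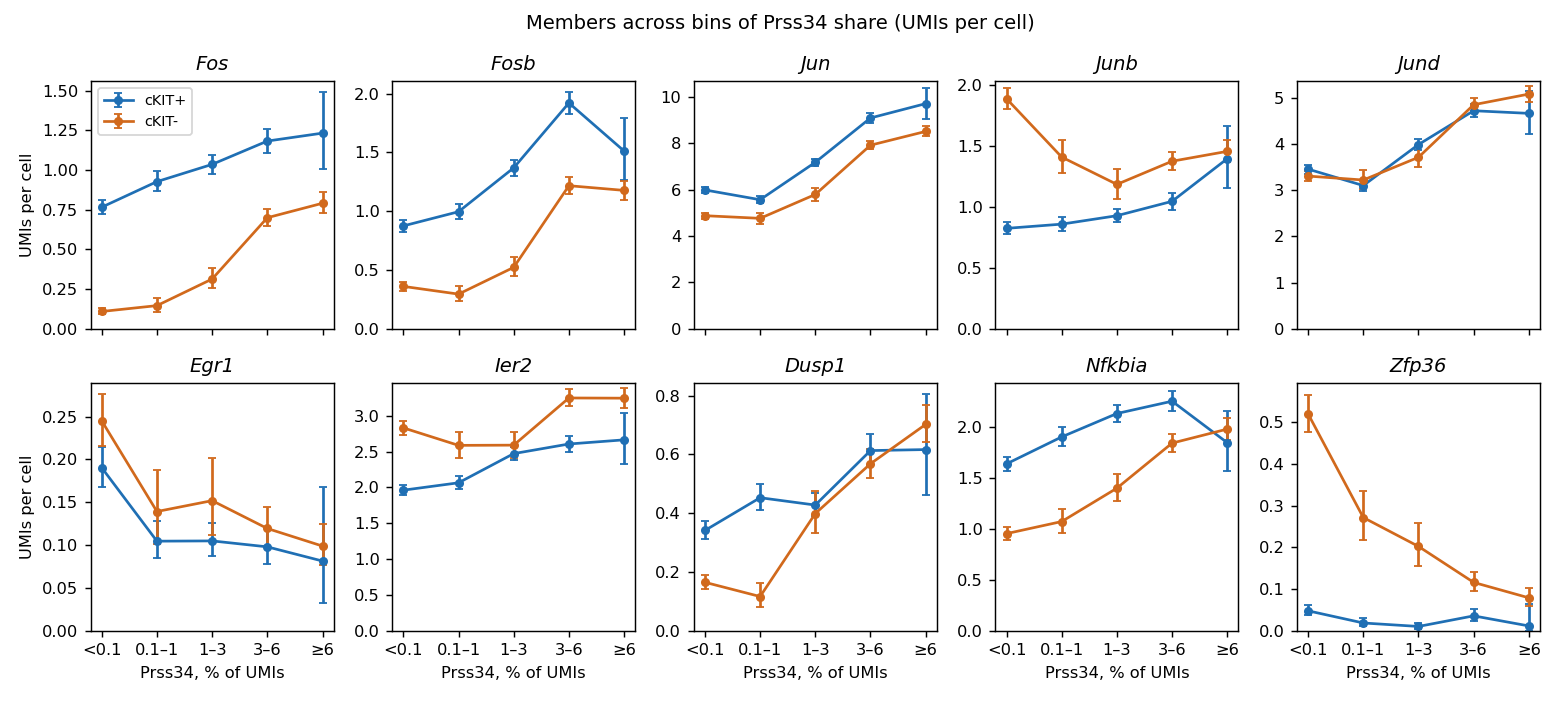
The same bins as UMIs per cell, with exact 95% counting intervals, in the cKIT+ library (blue) and the cKIT- library (orange). Zfp36 and Egr1 keep their highest value in the lowest bin of the cKIT- library, at 0.521 and 0.245 UMIs per cell, whereas Jun goes from 4.88 to 8.51.

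At a like Prss34 share, the sorts lay closer in the bin of 3 to 6% than over the whole libraries, but not in every bin. In the bin of 0.1 to 1%, Jun was at 394 CPM in cKIT+ and 1253 CPM in cKIT- cells. Junb was there at 60.8 and 371 CPM, while Fos went the other way, at 65.7 and 38.3 CPM. In the bin of 3 to 6%, with 837 cKIT+ and 896 cKIT- cells, 1 of 8 members (Junb, from 71.9 to 151 CPM, 2.10-fold, 1.93 to 2.29) passed 2-fold with the higher level in cKIT- cells and 0 with the lower, against 2.07% and 0.700% of 3000 genes. Ier2, at 179 and 357 CPM, had a ratio of 1.99, Jund 1.64 and Jun 1.39. Fos (0.946) and Fosb (1.01) had intervals that included 1. Zfp36, at 2.46 and 12.8 CPM, was 5.18-fold higher (3.42 to 8.05) at a low level. Among cells of 3000 to 6000 UMIs in this bin, Junb was at a log2 ratio of 0.48 and no longer passed. Fosb and Dusp1 were there at -1.34 and -1.13, against 0.02 and 0.57 over the whole bin. The median cell of the bin held 14206 UMIs in cKIT+ and 8912 in cKIT-, so the window took only its shallow cells. No counting interval is given for it, so these 2 values are not read as a reversal. In the bin under 0.1% the sorts were far apart, with Junb at 62.6 and 646 CPM, Zfp36 at 3.64 and 178 CPM and Jun at 455 and 1669 CPM in cKIT+ and cKIT- cells. The Fos level went the other way there, at 58.2 and 37.2 CPM. That bin holds unlike cells in the 2 sorts, mostly ungated in cKIT+ and mostly basophil-gated in cKIT-. Cdh1, the gene of E-cadherin, was at 46.5 CPM in its cKIT+ and 333 CPM in its cKIT- cells. Kit, the gene of the sorted receptor, was at 49.2 and 0 CPM.

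The share of cells with at least 1 UMI was compared after drawing 2000 UMIs from each cell. Zfp36 was then seen in 1.65% of 6134 cKIT+ cells and in 12.1% of cKIT- cells. Within the cKIT- library it was seen in 25.3% of cells of the lowest and 1.70% of cells of the highest Prss34 bin, and no share from free RNA was measured for these bins. With all UMIs counted, in erythroid-gated cKIT+ cells, which had a median of 4747 UMIs, Zfp36 was seen in 0 of 59 cells, which by the floor of 3 counts allows up to 5.08% of such cells to hold a UMI and sets no limit on cells that express the gene. Junb was seen in 12.2% of cKIT+ and 34.8% of cKIT- cells, and Jun in 45.5% and 66.5%. Fos, at 9.59% and 9.58%, was seen in like shares of the 2 sorts over all lineages. Among basophil-gated cells it was seen in 11.3% (10.2 to 12.5) of cKIT+ and 8.46% (7.49 to 9.52) of cKIT- cells. Before the draw, Zfp36 was seen in 5.73% of cKIT+ and 18.9% of cKIT- cells.

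Between basophil-gated cells drawn to 2000 UMIs, the 10 members together gave a median of 2 UMIs per cell in the cKIT+ library (highest 26) and 6 in the cKIT- library (highest 59). No member was seen in 410 of 3069 cKIT+ cells and in 99 of 2966 cKIT- cells. Jun was spread more widely than counting alone gives, with a variance of 1.88 times its mean in cKIT+ and 3.21 times in cKIT- cells, and up to 20 UMIs in 1 cell. Junb had 1.25 and 2.36, and Nfkbia 1.08 and 1.49. Pairs of members had low correlations between cells, with a median Pearson r of 0.06 in cKIT+ and 0.08 in cKIT- cells. These medians cover the 7 cKIT+ and 9 cKIT- members with at least 0.1 UMIs per cell. Counts this sparse keep r low by counting error alone, so joint expression cannot be judged from them. The highest pair over all bins was Junb with Ier2 in cKIT- cells, at 0.34. Within the cKIT- Prss34 bins that pair ran from 0.33 in the lowest bin to 0.04 in the highest, and Jund with Ier2 reached 0.40 in the lowest cKIT+ bin (260 cells). These cells share a library and are not independent samples.

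Other lineages in the sorts had their own sets of members. In cKIT+ cells, the mast progenitor gate (288 cells, 3 of 6 markers at 20 CPM or more, Tpsb2 and Tpsab1 at 0) had the highest Jun, at 946 CPM (909 to 985), and the highest Egr1, at 76.1 CPM (65.7 to 87.6), each above the next gate beyond counting error. Its Zfp36 was 1 UMI in all. Basophil-gated cells came second for Jun at 502 CPM, and the granulocyte/monocyte progenitor, neutrophil and erythroid gates were lowest at 156, 102 and 96.5 CPM, the last 2 with overlapping intervals.

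Monocyte-gated cells had the highest Fos of both libraries, at 179 CPM (66 cells) in cKIT+ and 223 CPM (50 cells) in cKIT-, and the highest Zfp36, at 129 and 218 CPM. The summed dendritic markers of this gate, at 17476 CPM in cKIT+ and 10461 CPM in cKIT-, exceeded its summed monocyte markers, at 5332 and 5536 CPM. Cells past the monocyte threshold were kept out of the dendritic gate whatever their dendritic markers. The monocyte and dendritic gates are thus not cleanly separate cell types. The Fos and Zfp36 intervals of monocyte-gated cells overlapped those of the next gate except for Zfp36 in the cKIT- library. In the cKIT+ library that next gate was the dendritic gate (79 cells), with Fos at 110 and Zfp36 at 123 CPM, and with the highest Junb, at 241 CPM, close to the 223 CPM of monocyte-gated cells. Jund was highest in B cell-gated cells, at 713 CPM (69 cells) in cKIT+, with the mast progenitor gate close by at 702 CPM, and at 1376 CPM (229 cells) in cKIT-, above all other gates. Nfkbia was highest in the same cells at 230 and 428 CPM, in the cKIT+ library with an interval that overlapped that of neutrophil-gated cells (215 CPM). Neutrophil-gated cells combined low Jun (102 and 89.4 CPM) with Ier2 at 225 and 346 CPM.

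Most Zfp36 UMIs of the cKIT+ library came from other cells: basophil-gated cells were 48.3% of the cells and held 15.8% of the Zfp36 UMIs, against 49.9% of all UMIs. In the cKIT- library they were 84.1% of the cells and held 71.8%, against 90.2% of all UMIs. For Jun the shares were 61.7% and 94.4%, the latter close to the share of all UMIs. Summed over the 10 members, basophil-gated cells stood at 1361 CPM in the cKIT+ library, 1.61 times (1.59 to 1.64) the 845 CPM of all other gates together, and at 2868 CPM in the cKIT- library, 1.27 times (1.23 to 1.32) the 2253 CPM of the others. The other gates were pooled by UMIs, and in cKIT+ the granulocyte/monocyte progenitor gate, with 15.25% of all UMIs, weighed most. Taken singly, the cKIT+ mast progenitor, dendritic, B cell and monocyte gates lay above the basophil gate in this sum. In the cKIT- library the B cell gate did.

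**Figure D5:**
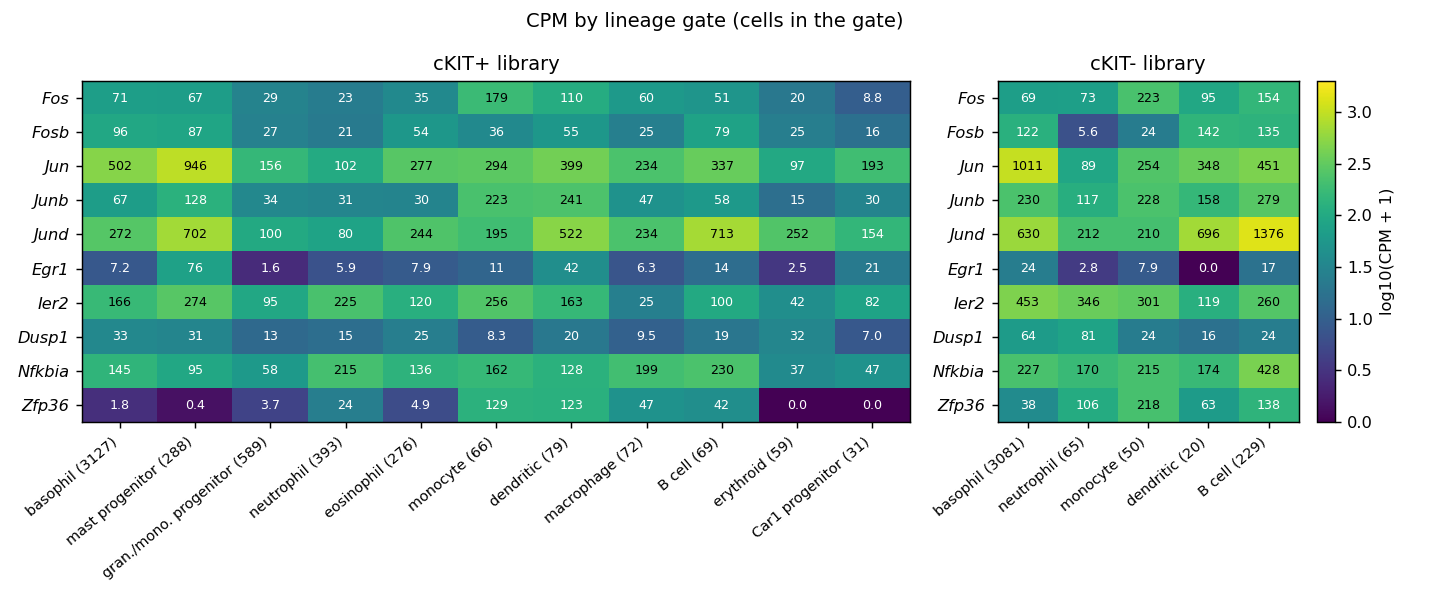
CPM of each member in each lineage gate of the cKIT+ library (left, 11 gates) and the cKIT- library (right, 5 gates of at least 20 cells), with the number of cells in brackets and colour on a log10(CPM + 1) scale. Jun is brightest in the mast progenitor gate (946 CPM) and the cKIT- basophil gate (1011 CPM), Jund in cKIT- B cell-gated cells (1376 CPM), and Zfp36 in monocyte-gated cells.

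Further genes of the same response were counted from lists. Of 20 further immediate early factors, 9 reached 50 CPM in at least 1 sort. In 6 the cKIT- level was higher by 2-fold and in 0 it was lower, where 11.5% and 6.14% of all 3224 genes were. Some of these 6, Btg2 among them, reached 50 CPM only in the cKIT- library and could thus only be called higher. Btg1 and Btg2, which restrain cell division, were at 71.0 and 45.0 CPM in cKIT+ and at 328 and 194 CPM in cKIT- cells, and Cebpb, a bZIP factor of myeloid cells, at 165 and 456 CPM. Of 13 further feedback inhibitors, 3 were tested and 2 were higher, Dusp6, a phosphatase of ERK (3.84-fold), and Spry2, an inhibitor of receptor kinase signalling (4.82-fold). Both reached 50 CPM only in the cKIT- library. Of 10 further bZIP partners, 2 were tested and Mafg was higher (2.43-fold). Of 7 MAP kinases and their activators, 4 were tested, and of 5 NF-kB subunits 1, with 0 past 2-fold.

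Along Prss34 in cKIT- cells, where 16.1% of all genes tested were lower by 2-fold, the lists differed. Of 10 further immediate early factors tested, 7 were at least 2-fold lower in the highest bin, among them Btg1 (703 to 190 CPM), Btg2 (475 to 106 CPM) and Klf6 (332 to 143 CPM). The median log2 ratio of the 10 was -1.75 in CPM and 0.00 as UMIs per cell. All 3 tested feedback inhibitors, Dusp6, Spry2 and Zfp36l2, were lower by 2-fold, as were 2 of 3 bZIP partners, 1 of 4 MAP kinases and 0 of 1 NF-kB subunits. The median of the MAP kinases, -0.19, was that of all genes tested. These lists were drawn up with results of these libraries known, and no test was made of them as sets.

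The genes whose levels were most like the summed members were sought over 26 groups of cells (the Prss34 bins and gates of at least 20 cells) among 6251 genes. They were Map4k4, a kinase upstream of JNK (Pearson r = 0.950 on log2 values), Crlf3 (0.949), Tmod3 (0.930), Cdc42se2 (0.916) and Arhgef1 (0.904). Map4k4 ranged from 10.8 CPM in granulocyte/monocyte progenitor-gated cells to 345 CPM in the lowest Prss34 bin of the cKIT- library. Of the members, Junb (0.910), Jund (0.864) and Jun (0.849) had the highest values with the sum, of which they are themselves a part, and Zfp36 (0.494) and Fos (0.501) the lowest. Over the 10 Prss34 bins alone, Zfp36 was at 0.915 and Fos at -0.566, with Fosb (0.393) and Dusp1 (0.549) next lowest. The groups share 2 libraries and the basophil gate overlaps the bins, so these values describe the libraries only.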

How the data were processed

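The deposited values are raw counts of UMIs, which the authors left unnormalised in 1 matrix per sort and made with Cell Ranger 3.0.2 against mm10 according to the submitters' processing notes. The kit is version 3 in the methods and version 2 in one label. The study's filter was repeated: a gene had to be detected in 40 cells, and the 1% of cells with the fewest and the most genes and the 1% with the most UMIs were dropped. The files hold 6632 cKIT+ and 3745 cKIT- cells with 95477153 and 24033994 UMIs.

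Counts were summed over cells and scaled to CPM over all UMIs of the group, with exact Poisson intervals for levels, exact binomial intervals for ratios and Clopper-Pearson intervals for shares (Python 3.11.15, NumPy 2.4.6, SciPy 1.17.1). With 1 library per condition there was no test. A gene was called at 2-fold if at least 50 CPM in 1 group, a rule that was tested on simulated data. A gene under 50 CPM in the other group thus entered only through the group in which it was high. This holds for the members and for the shares of all genes alike. Cells were thinned to 2000 UMIs for shares (345 cKIT+ and 176 cKIT- cells were shallower and left out).

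Lineage gates were set on the summed share of marker UMIs in a cell: basophil 1%, mast progenitor 0.1%, granulocyte/monocyte progenitor 0.2% (Elane and Prtn3 only, since the other markers were also on in basophil-gated cells), neutrophil 5%, eosinophil 0.5%, monocyte 0.3%, dendritic 0.5%, macrophage 0.5%, B cell 0.3%, erythroid 2% and Car1 progenitor 0.1%. These thresholds were set after the markers were seen. No doublet caller was run. A cell past the basophil threshold and that of 1 other gate went to the other gate. Cells past the B cell, macrophage or monocyte threshold were kept out of the dendritic gate, and erythroid cells out of the Car1 gate, since these share markers. Cells in several gates other than basophil (175 cKIT+, 5 cKIT-) were left out, and 1255 and 197 cells were in none. Only groups of at least 20 cells are compared.

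All 10 members were measured in every comparison, and levels of all 10 are printed for the whole libraries. Other genes were named from pathway lists, at most 4 per list by level and ratio, together with the 5 genes most like the members by correlation of log2(CPM + 1). The members and lists were chosen with earlier results of these data known. Of the 31053 identifiers, 30934 were found in GENCODE M21 (GRCm38), which gave the coordinates and the 3′ UTRs, from the transcript with the longest coding part. Alternatives covered cell filters, weights, totals, depth, thresholds, gates and Prss34 bounds.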

Additional observations from a re-analysis of the deposited data

Results flagged for a closer look

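For 5 of the 8 members tested in both libraries, the log2 ratio of the highest over the lowest Prss34 bin was above 0 in the cKIT+ and below 0 in the cKIT- library, with both counting intervals clear of 0. The same held for 17.3% of the 2734 genes tested in both. Fosb also had opposite signs, at 0.96 and -0.03, but its cKIT- interval included no change. It was 0.87 in the cKIT+ and -0.94 in the cKIT- library for Jun, 0.93 and -2.12 for Junb, 0.60 and -1.12 for Jund, 0.61 and -1.54 for Ier2, and 0.34 and -0.69 for Nfkbia. In the cKIT+ library, the value of Nfkbia was 0.00 with cells thinned to 2000 UMIs, and that of Ier2 was -0.01 at 1000 UMIs. These members thus lost their cKIT+ direction at these depths. Over all alternatives, the lowest cKIT+ values of Jun, Junb and Jund were 0.54, 0.28 and 0.23. Among basophil-gated cKIT+ cells drawn to 2000 UMIs, Jund was at 0.808 UMIs per cell in the lowest bin (260 cells) and 0.774 in the highest (84 cells). Ier2 was there at 0.512 and 0.464 and Nfkbia at 0.304 and 0.274, so these 3 were not higher in the highest bin. Junb was at 0.250 and 0.262 and Jun at 1.15 and 1.71. No counting interval is given for these means. With 1 library per sort, the difference between the libraries was not tested. As UMIs per cell, Junb kept opposite directions, with ratios of 1.70 and 0.771, whereas Jun (1.62 and 1.75), Jund (1.35 and 1.54), Ier2 (1.36 and 1.15) and Nfkbia (1.13 and 2.08) were higher in the highest bin of both libraries. Against the median tested gene, whose log2 ratio was 0.02 in the cKIT+ and -0.19 in the cKIT- library, the 5 members kept opposite directions, with -0.50 for Nfkbia and -0.75 for Jun in cKIT- cells. The highest cKIT+ bin held 86 cells. The lowest bins held unlike cells in the 2 sorts, with the cycling markers at 1104 CPM in cKIT+ and 21.9 CPM in cKIT- cells.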

How the results depend on the processing

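No paired analysis was possible because each sort was a single library and cells carry no pairing. Over all alternatives, the log2 ratios of the members kept their sign in 96 of 100 values between whole libraries, 111 of 120 between basophil-gated cells, 115 of 119 along Prss34 in cKIT+ cells, 131 of 140 in cKIT- cells and 100 of 110 at a like Prss34 share. The alternatives with UMIs per cell in the bins, with cells of 3000 to 6000 UMIs and without shared barcodes were chosen after seeing the data. Too few cells remained in the highest cKIT+ bin for the depth window or without cycling cells, so these gave no value. Depth limits Egr1, Zfp36 and Dusp1, with few UMIs in the small groups. The cause of each change was not tested, except that a higher CPM minimum tests fewer genes.

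The summed members of basophil-gated cells over other gates (1.61 in cKIT+ and 1.27 in cKIT- cells) stood at 1.67 and 1.35 with no filter on cells, 1.13 and 1.83 with equal weights for all cells, 1.70 and 1.38 without the 10 most abundant genes in the total, 1.28 and 1.32 at 2000 or 1000 UMIs per cell, 1.83 and 1.13 with gate thresholds 2 times higher, and 1.23 and 1.75 for cells of 3000 to 6000 UMIs. In cKIT+ cells it was 1.42 without the 5% of cells with the most UMIs, 1.65 with cells of several gates counted in 1, and 1.43 with thresholds 2 times lower.

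Of the members past 2-fold along Prss34 in cKIT+ cells (1 higher), there were 5 without the 10 most abundant genes or without Prss34 and Mcpt8, 2 at 2000 UMIs per cell and 0 at 1000 UMIs (Dusp1 -0.32), at a minimum of 200 CPM or as UMIs per cell. In cKIT- cells (1 higher, 5 lower), 0 were higher with equal weights, at 1000 UMIs, at 200 CPM (3 lower) or without cycling cells, 3 were lower at 3000 to 6000 UMIs, and as UMIs per cell 4 were higher and 2 lower, with Jund at 0.62 and Ier2 at 0.20. Between the sorts in the Prss34 bin of 3 to 6% (1 higher), 2 were higher without the 5% of cells with the most UMIs. The same number were higher with equal weights or without the 10 most abundant genes. At 200 CPM or as UMIs per cell 0 were higher, and 2 were lower at 3000 to 6000 UMIs. Between basophil-gated cells (4 higher), 2 were higher with thresholds 2 times higher, and as UMIs per cell 0 were higher and 1 (Fos) lower, with Jun at -0.11. As UMIs per cell, 0 were higher between whole libraries (5 in CPM). The share of cells with a UMI of Zfp36 (1.65% and 12.1%) was 1.23% and 7.13% at 1000 UMIs, 5.73% and 18.9% with all UMIs, and 0.359% and 3.04% at 2 or more UMIs.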

Other observations

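Heat shock genes, a list of 9 of which handling of cells can induce some, are given here by their counts. Of 5 that reached 50 CPM, 3 were at least 2-fold lower in cKIT- than in cKIT+ cells and 0 higher, with a median log2 ratio of -1.46, where 6.14% of 3224 genes were lower and 11.5% higher. Hsp90ab1, a cytosolic chaperone, was at 2755 CPM in cKIT+ and 822 CPM in cKIT- cells, Hsp90aa1 at 818 and 298 CPM, and Hspe1, a mitochondrial chaperonin, at 397 and 109 CPM. In basophil-gated cells the median was -1.26. The stress-inducible Hspa1a and Hspa1b were at 0.878 and 0.746 CPM in all cKIT+ and 0.0875 and 0.0437 CPM in all cKIT- cells. They were thus too low to be tested, and a part of handling in these differences was not tested. Along Prss34 in cKIT- cells, 1 of the 5 was higher in the highest bin by 2-fold (Hsp90aa1, from 144 to 303 CPM) and 0 lower, with a median of 0.59, against 13% and 16.1% of 3404 genes. In cKIT+ cells, 3 of 5 were lower there and 0 higher, with a median of -1.19, against 7.85% and 10.4% of 3160 genes.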
